A study of Mus musculus with 24 samples.

Results

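The Trbj2 cluster is the downstream set of joining (J) segments of the mouse T cell receptor beta locus, and it was followed here through its 6 listed members, TRBJ2-1, TRBJ2-2, TRBJ2-3, TRBJ2-4, TRBJ2-5 and TRBJ2-7. They were taken by name from the columns of the 6 Tcrb tables, which list 11 J segments in all, 5 of them in the J1 cluster, against 22 V segments. The 4 receptor chains of the series together list 59 J segments. Receptor transcripts of thymocytes were sequenced from mice of 2 genotypes: Satb1 knockout (KO; Satb1-/- in the sample labels, Satb1cKO in the series design) and wild type (WT). There were 3 Tcrb libraries of each genotype, all from the thymus of C57BL/6 mice of 4 to 12 weeks, and no treatment is labelled. The sources used here name no Cre driver for a conditional allele, and do not say whether a library came from 1 mouse or from a pool. Satb1 is a nuclear protein that folds chromatin around genes and regulatory elements in developing T cells. Neither Satb1 nor any marker gene of the thymus is measured in these tables, so the genotype and the tissue rest on the labels.

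A beta chain gene is assembled in early thymocytes by joining a D to a J segment and then a V segment to that DJ unit. The locus carries a tandem pair of D-J-C units: Trbd1 with the J1 cluster and Trbc1, then Trbd2 with the J2 cluster and Trbc2. Trbd1 can be joined to J segments of either cluster, while Trbd2 is joined to the J2 cluster, and a J1 rearrangement leaves the downstream unit in place for a further joining on the same chromosome. The choice of J also fixes the constant region, since transcripts with a J2 segment are spliced to Trbc2.

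The coding sequences of the members are shown because the columns of the tables are calls of these short sequences in transcripts. In GENCODE M21 (GRCm38) the cluster lies on the plus strand of chromosome 6, between the end of Trbd2 at base 41542176 and the start of Trbc2 at base 41546730. The deposited tables name no genome build, so segments were matched by name. Sequences are GENCODE transcripts given 5′ to 3′, and capitals mark a run of 4 codons, TTN, GGN, any codon and GGN (N, any base), searched on the coding strand, which in these segments encodes the Phe-Gly-X-Gly turn of the J region:
TRBJ2-1: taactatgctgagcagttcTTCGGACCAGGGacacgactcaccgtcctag
TRBJ2-2: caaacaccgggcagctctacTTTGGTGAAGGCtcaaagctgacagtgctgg
TRBJ2-3: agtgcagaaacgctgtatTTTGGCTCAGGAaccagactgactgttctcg
TRBJ2-4: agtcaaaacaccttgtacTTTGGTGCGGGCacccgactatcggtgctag
TRBJ2-5: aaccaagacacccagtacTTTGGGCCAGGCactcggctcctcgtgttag
TRBJ2-7: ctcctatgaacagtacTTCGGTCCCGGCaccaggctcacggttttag
TRBJ2-6: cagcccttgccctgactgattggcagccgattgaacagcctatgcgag

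TRBJ2-1 is at chr6:41542754-41542803, TRBJ2-2 at chr6:41542957-41543007 and TRBJ2-3 at chr6:41543223-41543271. TRBJ2-4 is at chr6:41543362-41543410, TRBJ2-5 at chr6:41543453-41543501 and TRBJ2-7 at chr6:41543810-41543856. TRBJ2-1 lies 577 bases downstream of Trbd2, and TRBJ2-7 lies 1633 bases downstream and is the member nearest to the constant region. Trbj2-6, at chr6:41543598-41543645 between TRBJ2-5 and TRBJ2-7, is annotated as a J pseudogene, holds no such run and has no column in the tables. The run was found in all 6 members and in 57 of the 70 sequences annotated as receptor J genes (81.4%). The members are 47 to 51 bases long. With their 3′ ends set together, identity between a pair ran from 51.0% (TRBJ2-2 and TRBJ2-4) to 69.4% (TRBJ2-4 and TRBJ2-5), so that even the most alike pair differed at 15 of 49 bases.

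Each cell of a deposited table gives, in percent of the library, how often 1 V was joined to 1 J segment, and the cells of a table sum to 100. A J segment is read once per amplicon, so shares were not scaled by length. Depth is not given. The smallest value above 0 ranged from 0.00570% to 0.0133% in KO libraries and from 0.00657% to 0.00890% in WT libraries. Of the 132 V–J2 pairs, 0, 3 and 2 were listed at 0 in KO libraries 1, 2 and 3, against 0, 0 and 2 in WT libraries 1, 2 and 3. Shares are relative: J1 and J2 sum to 100%, so a lower share of one is a higher share of the other. In RNA of whole thymocytes, fewer cells with a rearrangement and less RNA per cell cannot be told apart. Since nothing in the labels ties replicates to separate mice, all p-values refer to the spread among these libraries, which may be technical.

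The J2 cluster held a lower share of every KO library than of any WT library. It made up 61.1%, 59.5% and 64.5% of KO libraries 1, 2 and 3, against 67.0%, 68.8% and 68.6% of WT libraries 1, 2 and 3. KO library 3 was the closest to the WT range, and the WT libraries lay closer to each other than the KO libraries did. The mean difference was -6.41 percentage points, or -0.41 in log2 of J2 over J1 (KO 0.69 ± 0.16, WT 1.10 ± 0.07; SD, n = 3 each). The exact permutation p was 0.1 for both (two-sided), which is the lowest value reachable with 3 libraries a genotype, and 0.25 after adjustment over 5 single values. With the V make-up of every library held at the mean of the 6 libraries, a calculation added after the data were seen, the share was 61.9% ± 2.60 in KO and 68.1% ± 0.918 in WT (SD, n = 3 each), a difference of -6.17 percentage points.

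Among the members, TRBJ2-3 and TRBJ2-5 fell in the knockout, TRBJ2-1 was separated from WT in every library without passing the test, and the values of TRBJ2-2 overlapped. TRBJ2-3 stood at 9.66%, 10.4% and 9.98% of KO libraries, against 11.5%, 11.4% and 11.4% of WT libraries. The groups did not overlap, and the WT values of TRBJ2-3 were the closest to each other of any member (SD 0.0641). Its log2 fold change was -0.20 (SE 0.064, 95% interval -0.34 to -0.05; limma adjusted p = 0.0314 over 11 J segments), a KO level 0.872 times that of WT. TRBJ2-5 stood at 9.96%, 10.3% and 11.1% of KO libraries, against 11.4%, 11.9% and 13.2% of WT libraries. Replicate 3 was the highest library of each genotype for TRBJ2-5, and the groups again did not overlap. Its log2 fold change was -0.22 (SE 0.079, 95% interval -0.39 to -0.04; limma adjusted p = 0.0365), a KO level 0.859 times that of WT.

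TRBJ2-1, the member nearest to Trbd2, stood at 10.7%, 10.4% and 10.9% of KO libraries, against 12.1%, 11.9% and 11.6% of WT libraries. The groups did not overlap, but the log2 fold change of -0.15 (SE 0.063, 95% interval -0.29 to -0.01) had a limma adjusted p of 0.0581. TRBJ2-7, the most used member, stood at 14.7%, 13.1% and 15.8% of KO libraries, against 15.7%, 16.8% and 15.5% of WT libraries. KO library 3 lay inside the WT range, and the log2 fold change of -0.14 (95% interval -0.32 to 0.04) did not pass (limma adjusted p = 0.147). TRBJ2-4 stood at 9.04%, 9.65% and 10.4% of KO libraries, against 10.1%, 10.98% and 10.1% of WT libraries. These ranges overlapped through KO library 3, with a log2 fold change of -0.10 (95% interval -0.27 to 0.06; limma adjusted p = 0.218). TRBJ2-2, the least used member, stood at 7.01%, 5.69% and 6.32% of KO libraries, against 6.12%, 5.80% and 6.72% of WT libraries. The KO range enclosed the WT range, and the log2 fold change was 0.03 (95% interval -0.18 to 0.23; limma adjusted p = 0.776), or -0.024 after centring.

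**Figure D1:**
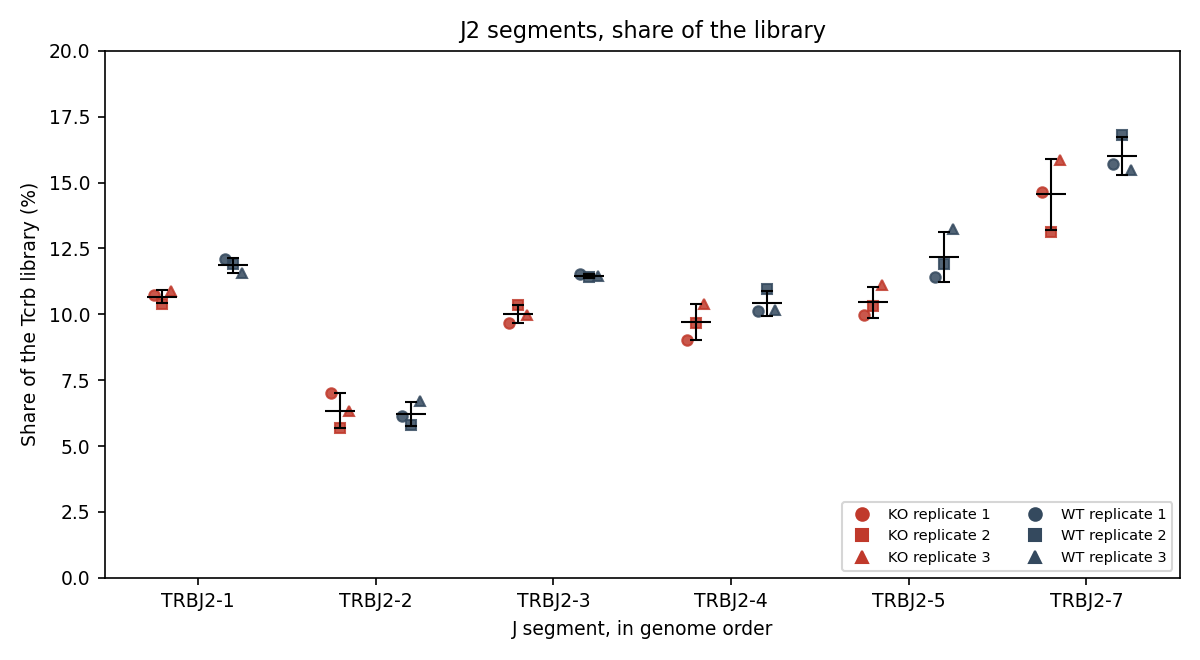
Share of the Tcrb library in percent (y axis) of each J2 segment in genome order (x axis), KO in red and WT in dark blue; each symbol is 1 library, and horizontal bars with error bars give the mean and SD of 3 libraries. KO and WT points do not overlap for TRBJ2-1, TRBJ2-3 and TRBJ2-5, overlap for TRBJ2-4 and TRBJ2-7, and for TRBJ2-2 the KO range encloses the WT range.

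In counts, 2 of the 6 members were called lower and 0 higher, where 18.2% of the 11 J segments were called lower and 54.5% in either direction. The groups did not overlap, with KO lower, for 3 of 6 members, against 27.3% of all J segments; these 3 are the only such segments, since the J1 segments all had higher KO means. The median log2 fold change was -0.15 over the members, 0.29 over the 5 J1 segments, 4 of which were called higher, and 0.03 over all 11. With the replicate number as a block, TRBJ1-1 was called higher as well (limma adjusted p = 0.0361, against 0.107 without the block), so that 7 of the 11 J segments were called, 2 of them J2 members. The mean differences of the members were -1.19 percentage points for TRBJ2-1, 0.128 for TRBJ2-2, -1.46 for TRBJ2-3, -0.716 for TRBJ2-4, -1.72 for TRBJ2-5 and -1.45 for TRBJ2-7. The calls of TRBJ2-3 and TRBJ2-5 did not hold when any of several libraries was left out. TRBJ2-3 was not called without KO library 1 or WT library 1, 2 or 3 (limma adjusted p = 0.118, 0.0956, 0.119 and 0.0950, range over all alternatives 0.0193 to 0.119). Its log2 fold change ran from -0.22 to -0.17 with a library left out. TRBJ2-5 was not called without KO library 1 or 2 or WT library 2 or 3 (limma adjusted p = 0.118, 0.0736, 0.109 and 0.147, range 0.0112 to 0.147). Its log2 fold change ran from -0.27 to -0.16 with a library left out. TRBJ2-7 was called lower without KO library 3 (limma adjusted p = 0.0499), and TRBJ2-1 was called lower after centring the log values of each library (limma adjusted p = 0.0300) and with a variance trend (limma adjusted p = 0.0367).

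The order of use ran alike at both ends in the genotypes. TRBJ2-7 was highest and TRBJ2-2 lowest in all 6 libraries, each separated from its neighbour in the order without overlap. In KO libraries the order between them was TRBJ2-1 (10.7% ± 0.240), TRBJ2-5 (10.5% ± 0.583), TRBJ2-3 (10.0% ± 0.348) and TRBJ2-4 (9.70% ± 0.682; SD, n = 3 each), and each overlapped the next. In WT libraries it was TRBJ2-5 (12.2% ± 0.940), TRBJ2-1 (11.9% ± 0.269), TRBJ2-3 (11.5% ± 0.0641) and TRBJ2-4 (10.4% ± 0.484; SD, n = 3 each). TRBJ2-5 overlapped both TRBJ2-1 and TRBJ2-3 there, and in WT library 1 it lay below TRBJ2-3 (11.4% against 11.5%). TRBJ2-1, TRBJ2-3 and TRBJ2-4 did not overlap each other in WT libraries. Use did not follow distance from Trbd2, since the most distant member was the highest and the second nearest the lowest.

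Shares within the cluster ask whether the members lost ground unevenly. TRBJ2-2 was the member with the largest shift: it held 11.5%, 9.56% and 9.79% of the J2 cluster in KO libraries, against 9.14%, 8.43% and 9.80% in WT libraries. WT library 3 lay just above KO library 3, and KO library 1 was well above the rest. The log2 fold change within the cluster was 0.17 (SE 0.080, 95% interval 0.01 to 0.33), with an unadjusted limma p of 0.0393 and an adjusted p of 0.432 over 11 J segments, each taken within its own cluster. With a library left out it ran from 0.087 to 0.22. No J segment of either cluster passed (0 of 11, or 0%, by limma, with TRBJ2-2 alone at an unadjusted p under 0.05, 9.09% of those tested). TRBJ2-7 held 23.5% ± 1.31 of the cluster in KO and 23.5% ± 0.938 in WT, and TRBJ2-1 held 17.3% ± 0.388 in KO and 17.4% ± 0.609 in WT (SD, n = 3 each). The remaining members were TRBJ2-3 with 16.2% ± 1.03 in KO and 16.8% ± 0.342 in WT, TRBJ2-4 with 15.7% ± 0.787 in KO and 15.3% ± 0.597 in WT, and TRBJ2-5 with 16.9% ± 0.547 in KO and 17.9% ± 1.23 in WT (SD, n = 3 each).

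The ranges of all 6 members overlapped within the cluster. Their 95% intervals reached at most 0.23 in log2 below 0 (TRBJ2-5) and 0.33 above 0 (TRBJ2-2), so for each member a shift within its interval was not excluded with 3 libraries a genotype. The mean position in the cluster, counted from 1 for TRBJ2-1 to 6 for TRBJ2-7, was 3.75 ± 0.0465 in KO and 3.78 ± 0.0338 in WT (SD, n = 3 each; exact permutation p = 0.5, adjusted p = 0.625). The entropy of the 6 shares was 2.54 ± 0.00675 bits in KO and 2.53 ± 0.00874 bits in WT (SD, n = 3 each; exact permutation p = 0.2, adjusted p = 0.333).

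**Figure D2:**
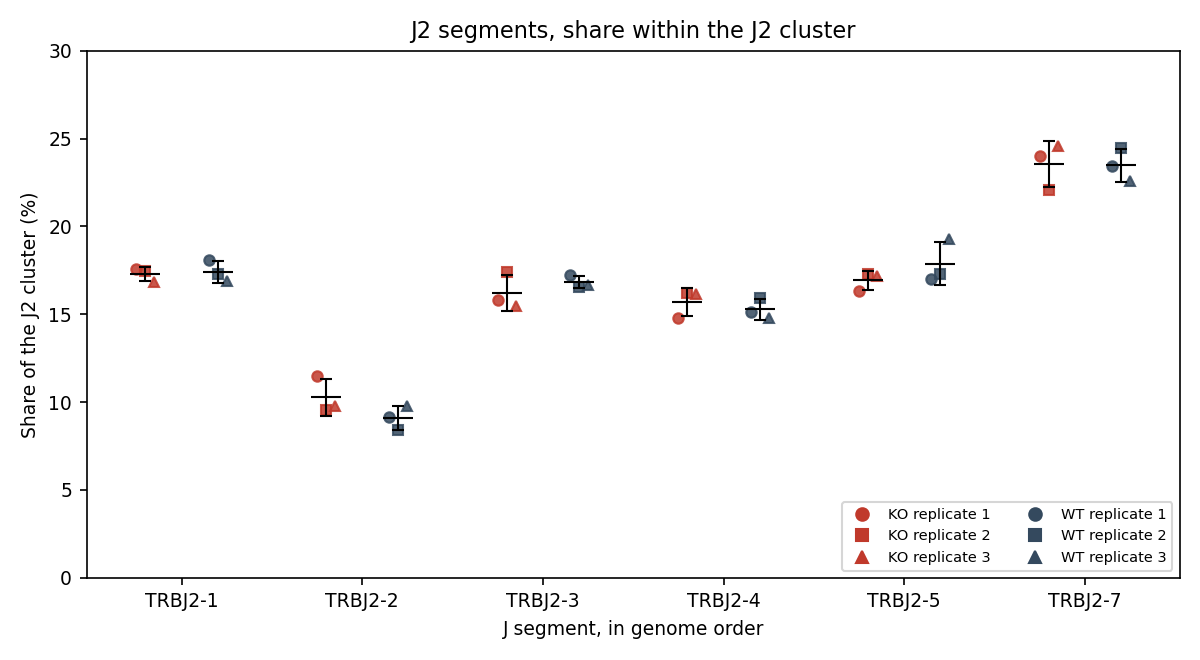
Share of the J2 cluster in percent (y axis) of each J2 segment in genome order (x axis), KO in red and WT in dark blue; each symbol is 1 library, and bars give the mean and SD of 3 libraries. The KO and WT points overlap for all 6 members, and TRBJ2-7 is the highest in both genotypes.

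The V rows show how widely the J2 share was lower. Within a V segment, the J2 share of its assignments had a lower mean in KO for 20 of the 22 V segments, the exceptions being TRBV13-3 and TRBV24. It ranged from 53.2% (TRBV20) to 73.9% (TRBV24) in KO, with a median of 62.1%, and from 60.9% (TRBV13-3) to 77.2% (TRBV30) in WT, with a median of 68.5%. For 10 V segments, 45.5% of those tested, all KO libraries lay below all WT libraries, and for 0 they lay above. The log2 ratio of J2 to J1 within a V segment was called lower by limma for 4 of 22 V segments (18.2%) and higher for 0. The 4 were TRBV1, TRBV4, TRBV17 and TRBV20. The median log2 fold change of the ratio over all 22 was -0.35.

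TRBV20 had the lowest J2 share in KO, with 57.0%, 50.4% and 52.1% in KO libraries against 64.0%, 68.1% and 64.3% in WT libraries. The log2 ratio of J2 to J1 differed by -0.73 (SE 0.176; limma adjusted p = 0.00689). TRBV20 was also the called V segment with more of both clusters: its J2 pairs held 2.49% ± 0.181 of the library in KO and 1.99% ± 0.249 in WT, while its J1 pairs held 2.21% ± 0.354 in KO and 1.04% ± 0.0705 in WT (SD, n = 3 each). TRBV17 joined J2 in 64.1%, 69.2% and 66.4% of its KO assignments, against 74.5%, 77.5% and 77.5% of its WT assignments. Its log2 ratio differed by -0.71 (SE 0.172; limma adjusted p = 0.00689), with J2 pairs at 3.99% ± 0.650 in KO and 4.12% ± 0.856 in WT and J1 pairs at 2.00% ± 0.321 in KO and 1.25% ± 0.157 in WT (SD, n = 3 each). For both V segments all KO libraries lay below all WT libraries.

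TRBV1, the V segment farthest upstream of the J clusters, joined J2 in 59.7%, 54.2% and 63.3% of its KO assignments, against 67.7%, 71.8% and 73.0% of its WT assignments (log2 ratio -0.75, SE 0.187, limma adjusted p = 0.00689). Its J2 pairs held 2.03% ± 0.175 of the library in KO and 2.54% ± 0.312 in WT, and its J1 pairs 1.41% ± 0.239 in KO and 1.06% ± 0.234 in WT (SD, n = 3 each). TRBV4 joined J2 in 58.8%, 53.1% and 64.0% of its KO assignments, against 65.4%, 69.5% and 71.6% of its WT assignments (log2 ratio -0.64, SE 0.195, limma adjusted p = 0.0252). Its J2 pairs held 2.30% ± 0.392 of the library in KO and 3.08% ± 0.430 in WT, and its J1 pairs 1.68% ± 0.661 in KO and 1.40% ± 0.273 in WT (SD, n = 3 each). KO library 2 had the lowest J2 share for TRBV1, TRBV4 and TRBV20, and KO library 1 for TRBV17. The call of TRBV4 was lost without KO library 1 or 2 or WT library 3 (limma adjusted p = 0.0895, 0.124 and 0.107; range over all alternatives 0.00378 to 0.394), and without KO library 3 the ratio was called lower for 11 V segments. When each library's mean over V segments was subtracted, which asks whether a V segment departed from the common shift, none of the 4 was called (limma adjusted p between 0.164 and 0.394), so a larger effect in these V segments than in the others was not shown.

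TRBV31 lies downstream of the J2 cluster in the opposite orientation and is joined by inversion. It joined J2 in 61.2%, 56.9% and 65.6% of its KO assignments, against 66.8%, 67.9% and 62.1% of its WT assignments, with overlapping ranges and a log2 ratio difference of -0.27 (95% interval -0.67 to 0.12; limma adjusted p = 0.197).

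**Figure D3:**
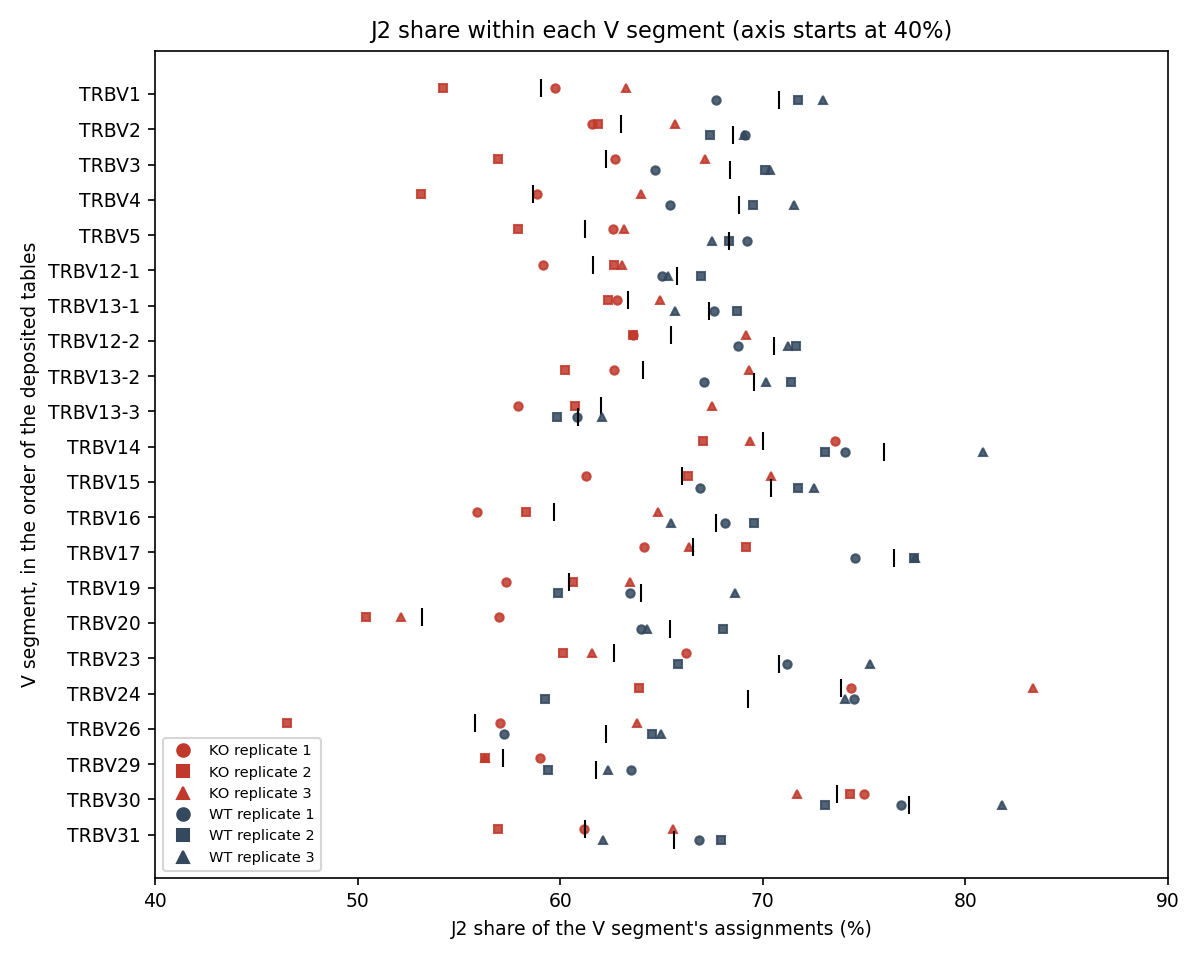
J2 share of the assignments of each V segment in percent (x axis, from 40 to 90) for the 22 V segments in the order of the deposited tables (y axis), KO in red above WT in dark blue; each symbol is 1 library and each vertical tick the mean of 3 libraries. The KO mean lies left of the WT mean in 20 of 22 rows, and the points are separated in 10.

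Of the 132 V–J2 pairs, 118 had a mean share of at least 0.1% and were tested among 209 pairs of both clusters. No pair was called by limma (0 of 209, or 0%), which does not show that pairs were alike, and 12 J2 pairs had an unadjusted p under 0.05, 9 of them lower and 3 higher in KO, among 25 such pairs of the 209 (12%). Of the 118 J2 pairs 80 had a log2 fold change below 0, with a median of -0.13, against 101 of all 209 with a median of 0.01. When each pair was taken as a share of its J column, which removes the difference in the J total, 56 J2 pairs lay below 0. By member, the values were below 0 for 13 of 20 pairs of TRBJ2-1, 8 of 18 of TRBJ2-2, 14 of 20 of TRBJ2-3, 13 of 20 of TRBJ2-4, 17 of 20 of TRBJ2-5 and 15 of 20 of TRBJ2-7. For 17 J2 pairs all KO libraries lay below all WT libraries, as for 8.13% of all pairs tested, since no J1 pair did so. For 6 J2 pairs and 15 J1 pairs all KO libraries lay above all WT libraries, and 18.2% of all pairs were separated in either direction.

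**Figure D4:**
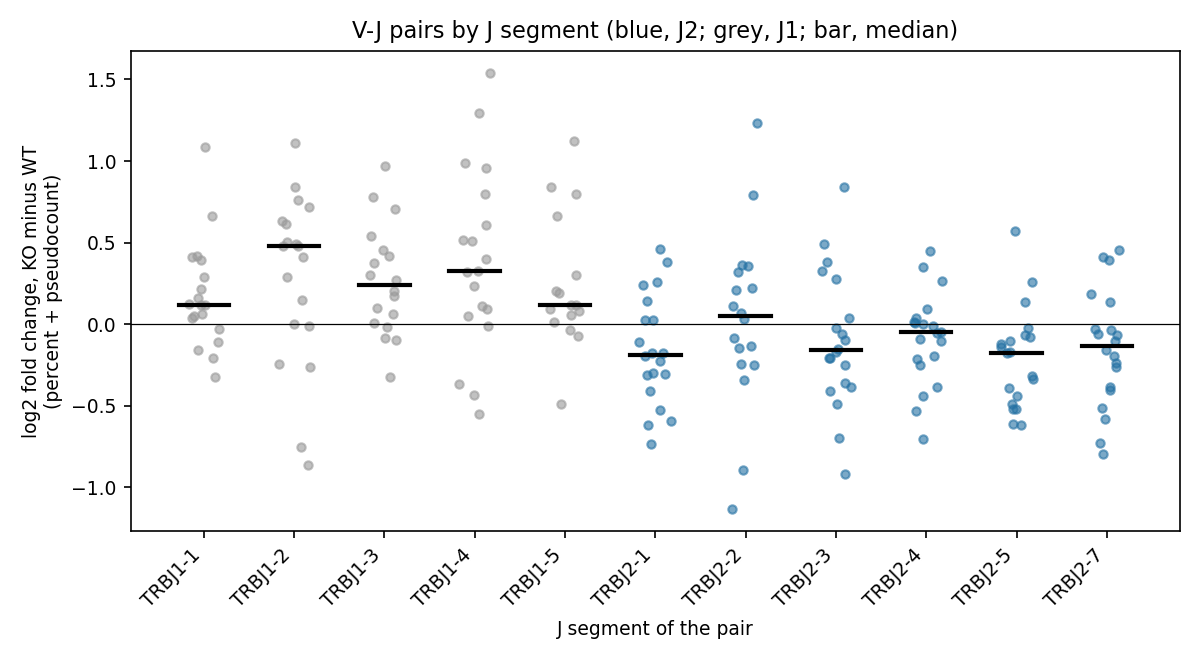
log2 fold change, KO minus WT, of each tested V–J pair (y axis) by its J segment (x axis), J2 segments in blue and J1 segments in grey; each point is 1 pair and black bars are medians. The medians of TRBJ2-1, TRBJ2-3, TRBJ2-4, TRBJ2-5 and TRBJ2-7 lie below 0, and that of TRBJ2-2 lies at 0.05.

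The most used partners were shared among the members. TRBV13-2 was among the 2 highest partners of all 6 members, TRBV12-1 of TRBJ2-1, TRBJ2-4 and TRBJ2-7, and TRBV5 of TRBJ2-2, TRBJ2-3 and TRBJ2-5. TRBV13-2 with TRBJ2-7 was the highest J2 pair, at 1.43% ± 0.246 in KO and 1.52% ± 0.0767 in WT (SD, n = 3 each), and the KO libraries, at 1.22% to 1.70%, spanned all WT libraries. TRBV12-1 with TRBJ2-7 held 1.39% ± 0.217 in KO and 1.45% ± 0.151 in WT (SD, n = 3 each). TRBV13-2 with TRBJ2-5 held 0.798%, 0.691% and 1.13% of KO libraries, against 1.24%, 1.27% and 1.42% of WT libraries, with no overlap but no call (limma adjusted p = 0.394). TRBV12-1 with TRBJ2-1 held 1.03% ± 0.0487 in KO and 1.16% ± 0.0442 in WT, TRBV5 with TRBJ2-3 held 0.904% ± 0.329 in KO and 1.25% ± 0.350 in WT, and TRBV5 with TRBJ2-2 held 0.627% ± 0.199 in KO and 0.696% ± 0.237 in WT (SD, n = 3 each).

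Chosen after its values were seen, TRBV2 with TRBJ2-2 had the lowest adjusted p of any J2 pair (0.0980 by limma). It held 0.536%, 0.638% and 0.483% of KO libraries, against 0.217%, 0.186% and 0.303% of WT libraries, so all KO values were above all WT values, with a log2 fold change of 1.23 (SE 0.29). TRBV1 with TRBJ2-2 went the other way, at 0.239%, 0.146% and 0.0769% of KO libraries against 0.289%, 0.364% and 0.294% of WT libraries (log2 fold change -1.14, SE 0.37, limma adjusted p = 0.241), and was also chosen after its values were seen. Over the 18 tested partners of TRBJ2-2 the log2 fold changes ran from -1.14 to 1.23, and none passed.

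The V make-up of the members was compared as the share of assignments that would have to be moved to another V segment for 2 make-ups to match. J2 and J1 assignments differed by 6.54% ± 1.51 in KO and 6.55% ± 1.49 in WT (SD, n = 3 each; exact permutation p = 0.9, adjusted p = 0.9). TRBJ2-7 was closest to the rest of its cluster, at 7.06% ± 1.11 in KO and 6.10% ± 1.25 in WT, and TRBJ2-2 was farthest, at 11.4% ± 3.00 in KO and 11.3% ± 0.674 in WT (SD, n = 3 each). TRBJ2-2 is also the least used member, and a smaller number of assignments makes such a distance larger; that part was not tested. The make-up of TRBJ2-2 was nearer to the other J2 segments than to J1 in 6 of 6 libraries, that of TRBJ2-5 and TRBJ2-7 in 5 of 6, that of TRBJ2-1 and TRBJ2-3 in 4 of 6, and that of TRBJ2-4 in 3 of 6. TRBJ1-1, TRBJ1-2 and TRBJ1-3 were nearer to their own cluster in 3 of 6 libraries each, TRBJ1-4 in 4 and TRBJ1-5 in 1. J2 held the larger share of every library, so the distances to J2 and to J1 were not on equal terms. A V make-up particular to J2 was not tested.

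Likeness of V segments to the J2 total was scored as the root mean square difference of log2 library shares, each centred on its mean over the 6 libraries. The lowest scores were 0.091 for TRBV13-2, 0.12 for TRBV12-2 and 0.14 for TRBV19, but a share that never changed would score 0.080, lower than all of these. The score thus favours V segments that varied little, and none of the 3 is shown to vary with the J2 total. TRBV13-2 held 8.57% ± 1.11 in KO and 9.39% ± 0.472 in WT, TRBV12-2 held 4.77% ± 0.396 in KO and 4.96% ± 0.224 in WT, and TRBV19 held 3.30% ± 0.240 in KO and 3.25% ± 0.352 in WT (SD, n = 3 each).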

How the data were processed

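Per the labels' protocols, thymocyte RNA was turned into cDNA by 5′ RACE, and the beta chain was amplified from an adaptor to the constant region and sequenced in paired reads. Per the submitters' processing notes, fastp was used. What was counted (reads or distinct clonotypes), and the aligner, segment caller and genome build: not given in the sources used here. Molecular identifiers are not mentioned. The authors deposited V–J tables in percent of each library. All values of the 6 Tcrb libraries were whole multiples of the library's smallest value above 0, within 1.95e-05 of a multiple, but counts were not reconstructed, so depth is unknown and no counting intervals were computed.

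Shares were summed per J or V segment and tested as KO minus WT on the log2(percent + 0.00570) scale with limma (version 3.58.1, R version 4.3.3); 0.00570 is the smallest value above 0 of any Tcrb library. Tests ran over features with a mean of at least 0.1%. Fold changes of low pairs are therefore understated. Shares within a cluster had no pseudocount. Benjamini-Hochberg adjusted p-values cover all features of a kind, and calls were made at 0.05. The 5 single values had an exact permutation test over 20 arrangements. Positions and J sequences came from GENCODE M21; all 6 members matched by name. The members, lists and tests were chosen with earlier results of these data known. Named were all members, the 2 highest V partners of each, called V segments and pairs, TRBV31 and the 3 V segments with the lowest likeness score to the J2 total.

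Equal replicate numbers were taken to pair libraries where residuals of equal numbers correlated above 0.1 for all 3 numbers: J shares gave 0.575, 0.159 and 0.293, shares within a cluster 0.509, 0.349 and 0.253, and pairs 0.375, 0.250 and 0.324. For J shares, which cover 11 segments, unequal numbers gave -0.59 to 0.294. The highest was KO library 3 with WT library 2, level with equal number 3, so the pairing of J shares is not clear. The main limma and permutation tests left the pairing by equal numbers out, and their p-values are unpaired unless a replicate block is named. With the block, the limma adjusted p was 0.0193 for TRBJ2-3 and 0.0112 for TRBJ2-5 as shares of the library. The pair test was tested on simulated data, and a pair that was not called may still differ. Alternatives were other pseudocounts, filters, centring, a variance trend, a replicate block, other denominators and leaving out each library. Other steps ran in Python 3.11.15 with pandas 2.3.3, numpy 2.4.6 and scipy 1.17.1, and figures were drawn with matplotlib 3.10.9. The other chains hold no Trbj2 segment and were not used.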

Additional observations from a re-analysis of the deposited data

How the results depend on the processing

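In each setting run, including each library left out in turn, the J2 share of the library stayed lower in KO, with a KO minus WT difference of -7.81 to -5.33 percentage points when a library was left out. Leaving out a library gave 0 to 8 called J segments instead of 6, 0 to 3 J2 members called lower instead of 2, 0 to 3 called pairs instead of 0, and 3 to 11 V segments with a called ratio instead of 4. A called pair count of 2 was reached with a variance trend. Of V segments with a called J2 to J1 ratio there were 8 with a filter of 1%, 7 with a variance trend and 1, TRBV24, higher in KO, after centring, where 10 V segments instead of 20 lay below 0; centring moved the median of all V segments from -0.35 to 0.01, by its construction. A filter of 1% leaves 14 pairs of both clusters, and all 12 J2 pairs among them lay below 0. In the main setting 80 of 118 J2 pairs did, and as shares of the J column 56 of 118. The replicate block changed no call of a J2 member, of a share within the cluster or of a pair. For the J2 to J1 ratio equal numbers did not pair the libraries (correlations 0.0535, 0.170 and -0.0691); with the replicate block 8 V segments were called instead of 4.

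Values near 0 turned their sign. TRBJ2-2 had a log2 fold change of -0.024 after centring and between -0.049 and 0.10 with a library left out. Within the cluster, TRBJ2-7 was at -0.0068 after centring and between -0.028 and 0.049 with a library left out, and TRBJ2-1 between -0.032 and 0.018. TRBV31 was at 0.093 after centring. As shares of the J column, TRBV13-2 with TRBJ2-4 was at 0.052, TRBV5 with TRBJ2-5 at 0.20, TRBV13-2 with TRBJ2-7 at 0.037 and TRBV12-1 with TRBJ2-7 at 0.072. With a library left out these ran from -0.25 to 0.082, -0.28 to 0.33, -0.23 to 0.00308 and -0.18 to 0.041, TRBV5 with TRBJ2-2 from -0.38 to 0.11, TRBV13-2 with TRBJ2-2 from -0.27 to 0.27 and TRBV12-1 with TRBJ2-4 from -0.31 to 0.038. The V make-up distance of J2 from J1 differed by 0.102 percentage points over pairs of at least 0.1% and by -0.795 to 0.793 with a library left out. The causes were not tested.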

Other observations

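Some V segments were joined to a J2 segment more or less often than the product of their shares. Over the 118 J2 pairs tested, 3 (2.54%) exceeded that product in all 6 libraries and 8 (6.78%) fell short of it in all 6. Of the 91 J1 pairs, 6 (6.59%) exceeded it and 6 (6.59%) fell short. The share of J2 pairs below the product was thus near that of J1 pairs, and the share above was smaller. The J2 pairs named below were chosen after their values were seen, and no test was run. TRBV17 with TRBJ2-1 was at 1.21, 1.46 and 1.05 times the product in KO libraries and at 1.25, 1.40 and 1.74 times in WT libraries. TRBV17 with TRBJ2-2 was at 1.29, 1.23 and 1.11 times in KO libraries and at 1.56, 1.12 and 1.40 times in WT libraries, and TRBV5 with TRBJ2-2 was at 1.13, 1.13 and 1.11 times in KO libraries and at 1.35, 1.25 and 1.26 times in WT libraries. TRBV17 was below the product with TRBJ2-4, at 0.733, 0.557 and 0.707 times in KO libraries and 0.941, 0.995 and 0.551 times in WT libraries. With TRBJ2-5 it was above the product in 5 of 6 libraries (mean 1.18 times), and the means were 1.05 times with TRBJ2-3 and 1.06 times with TRBJ2-7. In WT libraries TRBV17 joined J2 in a mean of 76.5% of its assignments, against a J2 share of 68.1% of the library.

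Of the 8 pairs below the product, TRBV20 with TRBJ2-2 was the lowest, at 0.617, 0.693 and 0.570 times in KO libraries and 0.871, 0.339 and 0.586 times in WT libraries. TRBJ2-5 was the J segment of 3 of the 8, with TRBV12-1 (KO 0.816 ± 0.0385, WT 0.740 ± 0.0906), TRBV13-1 (KO 0.837 ± 0.0781, WT 0.886 ± 0.0270) and TRBV19 (KO 0.898 ± 0.0646, WT 0.857 ± 0.181; SD, n = 3 each). The rest were TRBV29 with TRBJ2-3 (KO 0.778 ± 0.0843, WT 0.683 ± 0.165), TRBV13-3 with TRBJ2-4 (KO 0.879 ± 0.0577, WT 0.812 ± 0.128) and TRBV3 with TRBJ2-2 (KO 0.885 ± 0.0284, WT 0.857 ± 0.0630; SD, n = 3 each).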
